A study of Drosophila melanogaster with 12 samples.

Results

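Hexokinase, glycolysis and isocitrate dehydrogenase transcripts were followed in fly heads over the first 2 days after a temperature cycle had ended. The genes chosen were Hex-A, Hex-C, Pgi, Pfk, Gapdh1, Gapdh2, Pgk, Eno and Idh. They were taken as all probe sets annotated to 1 of these 9 genes alone, with control probe sets left out. This gave 8 probe sets of the 13966 that were not controls, 1 each for 8 genes, and all 8 passed the filter on low values that left 11156 probe sets for testing. Gapdh2 was not analysed here.

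The flies were adult Drosophila melanogaster of the strain cn bw, which carries mutations in the eye pigment genes cinnabar and brown on all arrays alike. They had been kept in darkness throughout, at first at 25 °C and then in a cycle of 12 h at 18 °C and 12 h at 25 °C, and were collected after release to 25 °C without a cycle. AA (ambient/ambient) time is counted in hours from the moment at which the cold period would have begun. The first 12 h of each day, formerly cold, are called the subjective cryophase and the next 12 h the subjective thermophase. Each of the 12 Affymetrix arrays held RNA of pooled heads from 1 collection. Collections lay 4 h apart, the first at AA2 and the last at AA46, so that each of 6 times of day was measured once on each of 2 days. The labels do not say whether the collections came from separately reared cultures, so the p-values rest on a spread between arrays that may be technical. There were no samples from flies held in the cycle and none from clock mutants among these arrays, and age was not given in the labels.

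Glycolysis breaks glucose down to pyruvate and yields ATP and NADH. Hexokinases trap glucose in the cell as glucose 6-phosphate, Pgi turns this into fructose 6-phosphate, and phosphofructokinase commits the sugar to the pathway. The later enzymes, among them Gapdh1, Pgk and Eno, handle the 3-carbon intermediates, and brain and photoreceptors depend heavily on this supply of fuel. Idh encodes the NADP-dependent isocitrate dehydrogenase, which makes 2-oxoglutarate and NADPH and is distinct from the NAD-dependent enzyme of the citric acid cycle.

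The arrays had nearly the same median (5.64 to 5.67 log2), which follows from the normalization of the deposited levels. The number of arrays limits the precision. The AA46 array stood apart, with a mean correlation of 0.992 with the other arrays against at least 0.996 for each of the other 11, and with 18S rRNA control probe sets at 4.09 log2 against 2.78 to 2.99 log2. Photoreceptor markers were high (Arr1 mean 13.11 log2, Arr2 12.68 log2). Of the digestive and reproductive markers, the male accessory gland genes Acp36DE (2.67 log2) and Acp26Aa (2.26 log2) lay below the filter. Cp36 (6.76 log2), Jon65Aiv (6.65 log2) and Mal-A1 (5.69 log2) of the same list passed it. The neuronal markers elav (3.19 log2) and para (3.95 log2) lay below the filter as well, whereas nSyb (7.16 log2) and brp (5.71 log2) passed it. In whole heads, fewer cells of a type and less RNA per cell cannot be told apart. Levels of different probe sets depend on their probes and are not compared between genes here.

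The first comparison asked which of these transcripts kept a 24-h profile without the temperature cycle. Idh had the highest score of the 8 genes, Hex-A, Hex-C and Pfk had intermediate scores, and Pgi, Gapdh1, Pgk and Eno had low ones. The score, F24, states how much of the variance of a transcript across the 12 arrays a 24-h cosine accounts for, from 0 to 1. Its local permutation p gives how often a shuffled time order scored at least as high. At a local p under 0.05 there were 3 of the 8 genes (Idh, Hex-C and Hex-A), against 6.13% of all tested probe sets (684 of 11156). After Benjamini-Hochberg adjustment 0 of the 8 genes passed, as for all tested probe sets (0%), where the lowest adjusted permutation p was 0.112. With 100000 random time orders the smallest possible local p was 1e-05. A single probe set at that floor could not pass adjustment over 11156 probe sets, which limits what the 0% can show. The lowest local permutation p of the 8 genes, 0.00026 for Idh, lay above the floor. The median F24 was 0.327 over the 8 genes and 0.135 over all tested probe sets, and the median peak-to-trough difference of the fitted cosine was 0.12 log2 and 0.10 log2. The genes were chosen with earlier results of these data known, so these contrasts with all tested probe sets are descriptions only.

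**Figure D1:**
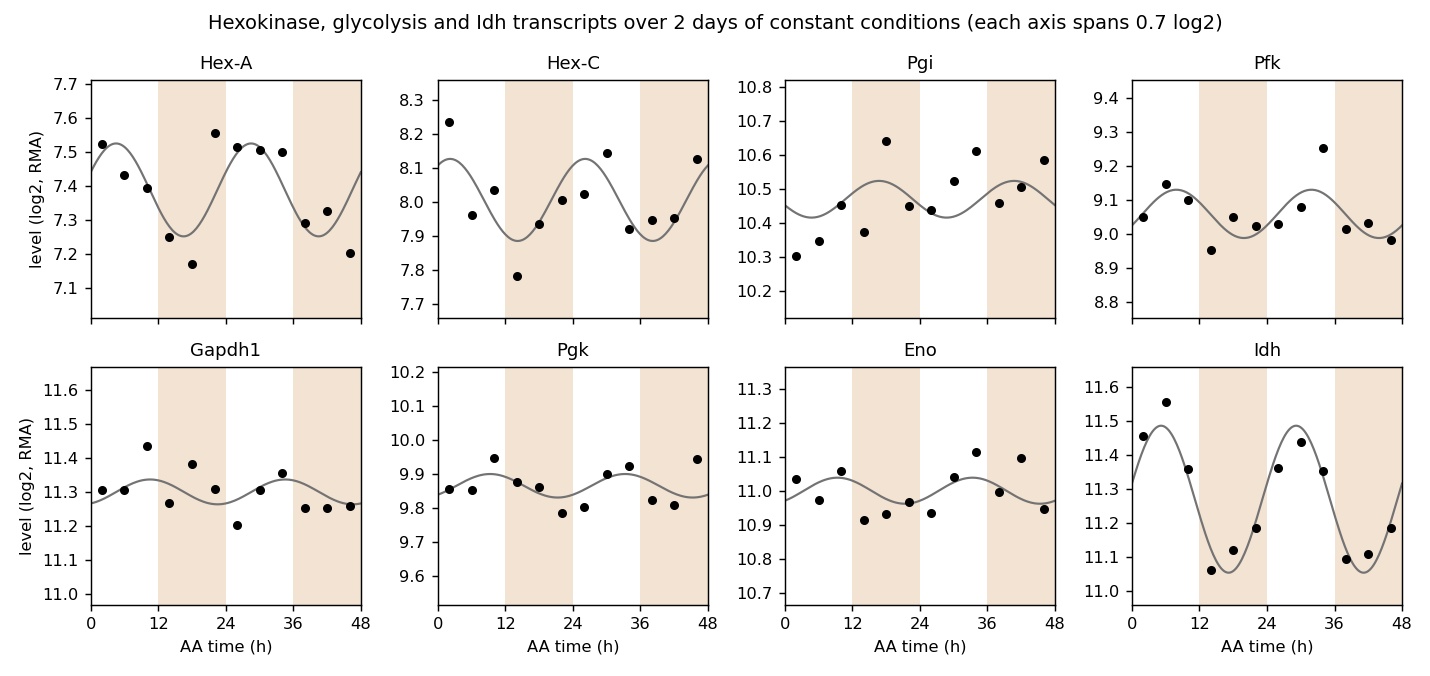
RMA log2 level (y axis, 0.7 log2 in every panel) of the 8 transcripts against AA time in hours (x axis), with 1 point per array, the fitted 24-h cosine as a line and the subjective thermophase shaded. Idh follows the cosine closely (F24 0.918), Hex-A departs from it most at AA22 and AA46, and Pgi, Gapdh1, Pgk and Eno do not (F24 0.145 to 0.217).

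Idh was high through the subjective cryophase and low through the subjective thermophase on both days. On day 1 its levels were 11.46, 11.56 and 11.36 log2 at AA2, AA6 and AA10, then 11.06, 11.12 and 11.19 log2 at AA14, AA18 and AA22. On day 2 they were 11.36, 11.44 and 11.35 log2 at AA26, AA30 and AA34, then 11.09, 11.11 and 11.18 log2 at AA38, AA42 and AA46. All 6 cryophase arrays lay above all 6 thermophase arrays, and on each day the highest array was that of 6 h and the lowest that of 14 h. The 4 arrays at 14 and 18 h were at most 11.12 log2, and both arrays at 22 h lay between these and the cryophase arrays.

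The fitted cosine of Idh had a peak-to-trough ratio of 1.35 (0.43 ± 0.04 log2, SE) with a peak at 5.2 ± 0.38 h, which lies in the first part of the subjective cryophase. Its F24 of 0.918 ranked 5 among the 11156 tested probe sets, with a local permutation p of 0.00026 and an adjusted permutation p of 0.223. The limma cosinor F test, which compares the same cosine with a moderated variance, called Idh (limma adjusted p = 0.0112) as 1 of 33 tested probe sets (0.296%). Without the AA6 array, that call was lost (limma adjusted p = 0.0595). With any single array left out the fitted peak of Idh stayed between 5.0 and 5.4 h and its peak-to-trough difference between 0.40 and 0.46 log2. After removal of a linear trend in AA time, Idh had a lower F24 of 0.764 (rank 38, local permutation p = 0.00256) and a peak-to-trough difference of 0.35 log2. The limma F test over times of day, with no cosine, did not call Idh (limma adjusted p = 0.254), and it called 0 of all tested probe sets. Fitted to each day alone, the peak was at 5.0 h on the first day and 5.4 h on the second, with peak-to-trough differences of 0.50 and 0.37 log2, and the difference between the days' cosines had a limma adjusted p of 0.820.

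The order of the times of day for Idh was 6, 2, 10, 22, 18 and 14 h from highest to lowest, with means of 11.50 ± 0.083, 11.41 ± 0.066, 11.36 ± 0.0028, 11.18 ± 0.00071, 11.12 ± 0.0085 and 11.08 ± 0.022 log2 (SD, n = 2 arrays). The largest step, 0.17 log2, lay between 10 and 22 h, the lowest cryophase and the highest thermophase time. The values at 6 and 2 h overlapped, and those at 2 and 10 h were only 0.004 log2 apart at their nearest, so these neighbours in the order did not differ beyond their spread. The pooled SD between the 2 arrays of a time of day was 0.045 log2 for Idh, the lowest of the 8 genes, whereas its SD over all 12 arrays, 0.17 log2, was the highest.

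Hex-A, one of the 2 hexokinases among the 8 genes, had a fitted peak over both days close in time to that of Idh. Its days differed widely at 1 time of day. Its levels on day 1 were 7.52, 7.43 and 7.39 log2 at AA2, AA6 and AA10 and 7.25, 7.17 and 7.56 log2 at AA14, AA18 and AA22. On day 2 they were 7.51, 7.51 and 7.50 log2 at AA26, AA30 and AA34 and 7.29, 7.33 and 7.20 log2 at AA38, AA42 and AA46. The AA22 array gave the highest Hex-A level of all 12 and the AA46 array, at the same time of day, the second lowest. Apart from AA22, every thermophase array lay below every cryophase array.

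The fitted cosine of Hex-A had a peak-to-trough ratio of 1.21 (0.27 ± 0.08 log2) with a peak at 4.5 ± 1.2 h. Fitted to each day alone, the peak was at 2.7 h on the first day and 6.6 h on the second. The difference between the days' cosines had a limma adjusted p of 0.621. Over both days the F24 of Hex-A was 0.545 (local permutation p = 0.0392, adjusted permutation p = 0.759). Leaving out AA22 raised F24 to 0.726 (local permutation p = 0.0125) and leaving out AA46 raised it to 0.669 (local permutation p = 0.0178). The local p of Hex-A stayed under 0.05 in only 4 of the 12 fits with 1 array left out (range 0.0125 to 0.0923), and it was 0.0557 with the day means removed, so the nominal score of Hex-A depended on single arrays.

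Hex-C, the other hexokinase, had a fitted peak closer to the onset of the subjective cryophase. On day 1 its levels were 8.24, 7.96, 8.04, 7.78, 7.94 and 8.01 log2 from AA2 to AA22. On day 2 they were 8.02, 8.14, 7.92, 7.95, 7.95 and 8.13 log2 from AA26 to AA46. The extremes both came from day 1, the highest at AA2 and the lowest at AA14, and on day 2 the arrays at 10, 14 and 18 h were the 3 low ones. The fitted cosine had a ratio of 1.18 (0.24 ± 0.07 log2) with a peak at 2.2 ± 1.1 h and an F24 of 0.555 (local permutation p = 0.0215, adjusted permutation p = 0.656). The local p stayed under 0.05 in 10 of the 12 fits with 1 array left out (range 0.0122 to 0.0878). Neighbouring times of day overlapped in every case for this gene.

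Pfk, the phosphofructokinase of the committed step, missed the local threshold, though not in every alternative fit. Its levels lay between 8.96 log2 (AA14) and 9.25 log2 (AA34), and the highest array of each day fell in the cryophase, at 6 h on the first day and at 10 h on the second. The fitted cosine had a ratio of 1.10 (0.14 ± 0.05 log2), a peak at 7.9 ± 1.4 h and an F24 of 0.438 (local permutation p = 0.0537, adjusted permutation p = 0.830). The local p was under 0.05 in 2 of the 12 fits with 1 array left out (range 0.0124 to 0.124). It was 0.0433 with arrays centred on their medians, 0.0384 at a period of 25 h and 0.0931 at 23 h. Fitted to each day alone, the peak of Pfk was at 5.6 h on the first day and 9.3 h on the second. The 2 arrays at 10 h stood at 9.10 and 9.25 log2, and those at 14 h at 8.96 and 9.02 log2.

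The remaining 4 enzymes of the pathway had low scores. Pgi, which follows the hexokinase step, ranged from 10.30 log2 (AA2) to 10.64 log2 (AA18), with a fitted peak at 16.7 ± 3.1 h, the only one of the 8 outside the first 12 h. Its F24 was 0.145 (local permutation p = 0.484), and the fits to single days put its peak at 17.3 h for the first day and 10.1 h for the second. Gapdh1, the glyceraldehyde 3-phosphate dehydrogenase, stayed between 11.20 and 11.43 log2, Pgk, the phosphoglycerate kinase, between 9.79 and 9.95 log2, and Eno, the enolase, between 10.91 and 11.12 log2. All 3 had their highest time-of-day mean at 10 h, at 11.39 ± 0.056, 9.94 ± 0.016 and 11.09 ± 0.040 log2 (SD, n = 2 arrays), and F24 values of 0.180, 0.217 and 0.177 (local permutation p of 0.417, 0.323 and 0.407). These low scores moved with single arrays, and with 1 array left out F24 ranged from 0.0553 (without AA18) to 0.301 (without AA14) for Pgi, from 0.0491 (without AA10) to 0.336 (without AA18) for Gapdh1 and from 0.0662 (without AA34) to 0.4497 (without AA42) for Eno, with no local p under 0.05. For Pgk the AA46 array, at 9.94 log2, was nearly as high as the 10 h arrays, and without it the F24 of Pgk was 0.657 with a peak at 9.6 h (local permutation p = 0.0176, adjusted permutation p = 0.535). That made 4 of 8 genes at a local p under 0.05 without AA46 (Hex-A, Hex-C, Idh and Pgk), where 7.19% of all tested probe sets passed (802).

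The second comparison set the 6 arrays of the subjective cryophase (2, 6 and 10 h) against the 6 of the thermophase (14, 18 and 22 h). It uses the same arrays as F24 and is a second reading of the same profiles. Idh was higher in the cryophase by 0.29 log2 (95% interval 0.20 to 0.39), or 1.23-fold, with means of 11.42 ± 0.080 and 11.13 ± 0.050 log2 (SD, n = 6). It was the 1 gene of 8 that limma called (limma adjusted p = 0.00788), against 0.251% of all tested probe sets in either direction (28 of 11156) and 0.134% that were higher in the cryophase (15). It was also the 1 gene of 8 whose phases did not overlap, where 0.323% of all tested probe sets (36) had every cryophase array above every thermophase array. With 1 array left out the limma adjusted p of Idh ranged from 0.00575 to 0.0306, the lowest without AA46.

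**Figure D2:**
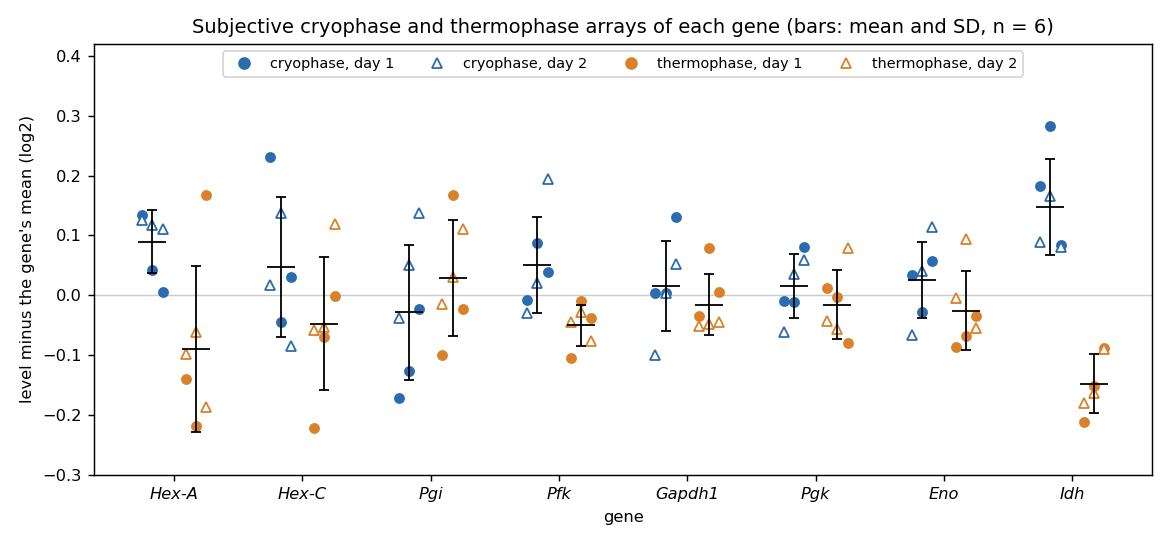
Level minus the gene's mean over 12 arrays (log2, y axis) for each of the 8 genes (x axis), with cryophase arrays in blue, thermophase arrays in orange, day 1 filled and day 2 open, and the mean ± SD of 6 arrays in black. The phases separate completely for Idh, and for Hex-A all but the AA22 array.

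Of the other 7 genes, 2 had an unadjusted limma p under 0.05 and both were higher in the cryophase, as were 3.67% of all tested probe sets at that threshold (409). Hex-A lay 0.18 log2 higher (95% interval 0.06 to 0.30), with a lowest, median and highest level of 7.39, 7.50 and 7.52 log2 in the cryophase and 7.17, 7.27 and 7.56 log2 in the thermophase. Its limma adjusted p was 0.464. Pfk lay 0.10 log2 higher (95% interval 0.01 to 0.19; limma adjusted p = 0.628), with 9.03, 9.09 and 9.25 log2 in the cryophase and 8.96, 9.02 and 9.05 log2 in the thermophase. For both genes the phases overlapped. The interval of Pfk included 0 in 6 of the 12 fits with 1 array left out and with array weights. The intervals of Hex-C (-0.04 to 0.23 log2), Eno (-0.04 to 0.15), Gapdh1 (-0.06 to 0.13), Pgk (-0.06 to 0.12) and Pgi (-0.18 to 0.07) all included 0. Without AA46 that of Hex-C excluded 0 (0.13 log2, 95% interval 0.005 to 0.25; limma adjusted p = 0.707). By the estimate alone 7 of the 8 genes were higher in the cryophase and Pgi was lower, while 45.0% of all tested probe sets were higher. The median difference was 0.07 log2 over the 8 genes and -0.01 log2 over all tested probe sets. As the genes were chosen with earlier results of these data known, this too is a description only.

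**Figure D3:**
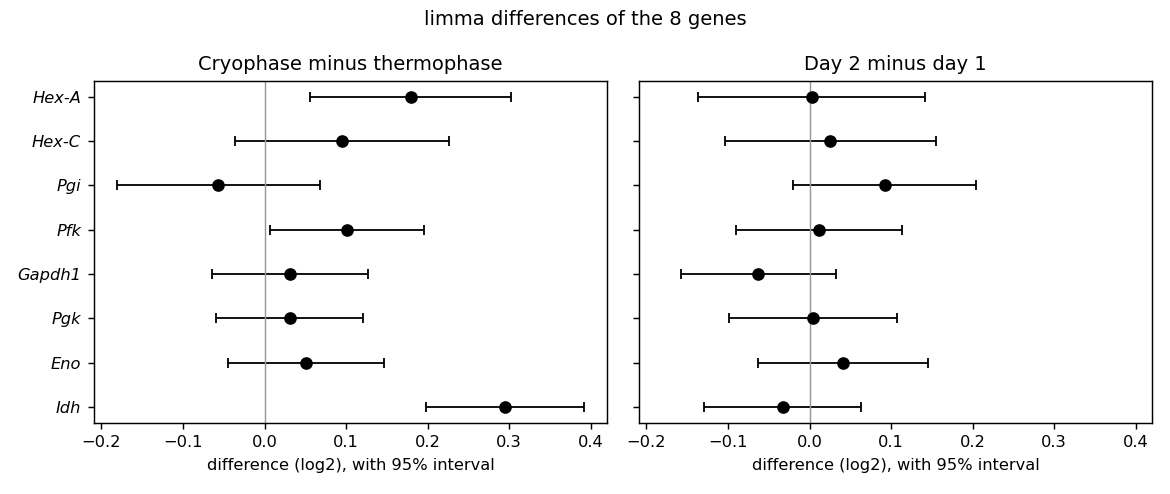
limma differences in log2 (x axis) with 95% intervals for the 8 genes (y axis), cryophase minus thermophase on the left and day 2 minus day 1 on the right. With all 12 arrays on the log2 scale, only the intervals of Idh, Hex-A and Pfk on the left exclude 0, and none does on the right.

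The third comparison set day 2 against day 1 within times of day. limma called 0 of the 8 genes, and 0 had an unadjusted limma p under 0.05, against 1.61% (180) and 14.8% (1647) of all tested probe sets. The widest differences were those of Pgi, which lay 0.09 log2 higher on day 2 (95% interval -0.02 to 0.20; limma adjusted p = 0.452), in 5 of 6 times of day, and of Gapdh1, which lay 0.06 log2 lower (95% interval -0.16 to 0.03; limma adjusted p = 0.566). Gapdh1 was higher on day 2 at 0 of 6 times of day. The interval excluded 0 for Pgi without AA18 or AA42 (0.14 log2, 95% interval 0.03 to 0.25) and for Gapdh1 on a linear scale, but neither was called (limma adjusted p of 0.2405 and 0.182). For Idh the difference was -0.03 log2 (95% interval -0.13 to 0.06), smaller than its difference between phases on either day, 0.33 log2 on day 1 and 0.26 log2 on day 2. Whether the phase difference itself changed between days was tested by limma as an interaction, and Idh gave -0.08 log2 (95% interval -0.27 to 0.12; limma adjusted p = 0.998), with 0 of the 8 genes called (0% of all tested probe sets) and 0 at an unadjusted limma p under 0.05 (3.23%, or 360).

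The 8 profiles differed in how alike they were. Over the 12 arrays, the 28 pairs of genes had Pearson correlations between -0.38 (Hex-A and Pgi) and 0.67 (Hex-A and Idh), and 6 pairs were above 0.5. Without the 2 arrays in which the first gene of a pair was farthest from its median, 4 of these pairs stayed above 0.5, namely Hex-A and Idh (0.67, then 0.65), Pfk and Eno (0.64, then 0.63), Pfk and Idh (0.62, then 0.67) and Pfk and Gapdh1 (0.51, then 0.63). The other 2 fell below 0.5, Gapdh1 and Pgk (0.53, then 0.17) and Hex-C and Idh (0.53, then 0.24). Without AA46 alone, these 2 pairs instead rose to 0.72 and 0.62, and Pfk and Gapdh1 fell to 0.48. Hex-A and Hex-C correlated at 0.39, and at 0.62 without AA46, where Hex-A was low and Hex-C high. These are descriptions over arrays that share their normalization.

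The genes with profiles most like that of Idh were CG42329 (r = 0.93), CG15096 (r = 0.93), the UDP-glycosyltransferase gene Ugt35B1 (r = 0.90), CG8051 (r = 0.89) and CG7079 (r = 0.88), by Pearson correlation over the 12 arrays among tested probe sets with 1 gene symbol. Their fitted peaks lay between 4.2 and 5.2 h, next to that of Idh at 5.2 h, and 3 of them had wider fitted cosines, up to 1.82-fold for Ugt35B1. The most like Hex-A were the gap junction gene Inx2 (r = 0.87), CG9512 (r = 0.87), Indy, which encodes a citrate transporter (r = 0.86), CG7601 (r = 0.86) and csul, a protein arginine methyltransferase gene (r = 0.85). Their fitted peaks lay between 3.1 and 5.9 h. Both lists were chosen by correlation over these same arrays, so fitted peaks near those of Idh and Hex-A follow from the choice. The 2 lists had no gene in common.

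**Figure D4:**
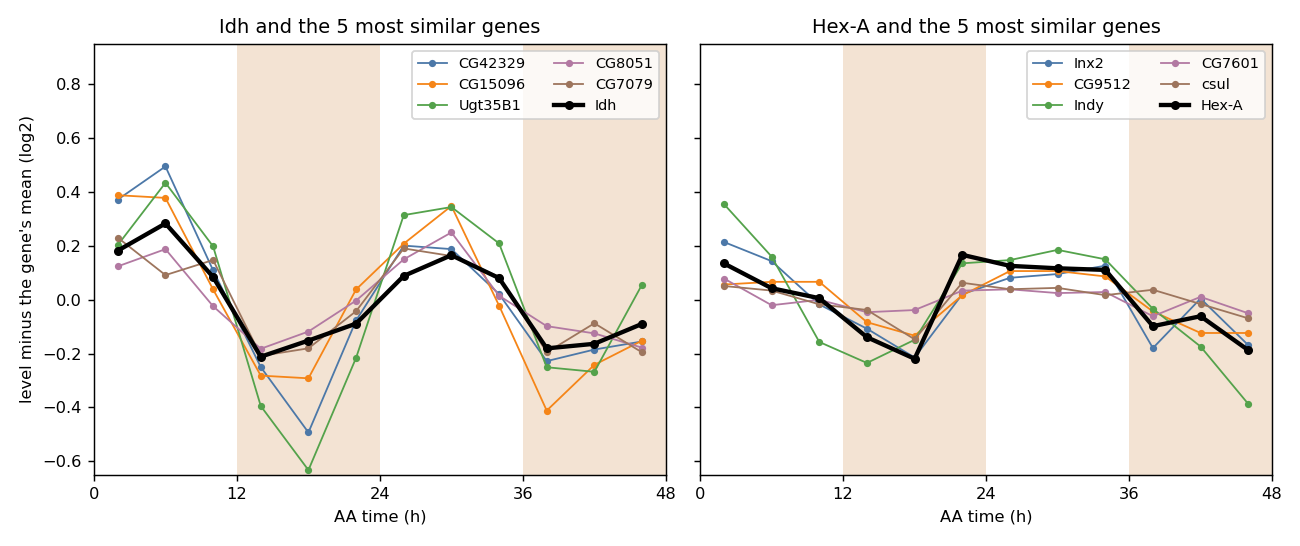
Level minus the gene's mean (log2, y axis) against AA time in hours (x axis) for Idh with the 5 most similar genes (left) and Hex-A with the 5 most similar genes (right), the thermophase shaded. The genes on the left share the drop between 10 and 14 h on both days, and those on the right share the higher level of Hex-A at AA22 than at AA18. As the genes were chosen by correlation over these arrays, such shared features follow from the choice.

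Enzymes that stand beside these genes in metabolism were taken from 5 lists, and 31 of the 47 listed genes were found on the array and 30 tested. Each gene entered through its probe set of highest mean. Of these 30 probe sets 0 had a local permutation p under 0.05, against 6.13% of all tested probe sets. limma called 0 of them between phases and 0 between days, against 0.251% and 1.61% of all tested probe sets. A second, dimmer probe set of the malic enzyme gene Men had a local permutation p of 0.0127. In the list of other glycolysis genes, 5 tested, the median F24 was 0.161. Of these, fbp, the fructose 1,6-bisphosphatase of gluconeogenesis, had an F24 of 0.473 (local permutation p = 0.0608) with a ratio of 1.27 and a peak at 4.8 h, and Ald1, the aldolase, 0.413 (local permutation p = 0.0504) with a ratio of 1.17 and a peak at 5.7 h. Both were named after their values were seen. Between phases fbp lay 0.22 log2 higher in the cryophase (limma adjusted p = 0.519) and Ald1 0.14 log2 higher (limma adjusted p = 0.626).

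The citric acid cycle list, 10 tested, had a median F24 of 0.135, the same as over all tested probe sets. It included the 3 subunit genes of the NAD-dependent isocitrate dehydrogenase, Idh3a, Idh3b and Idh3g, named here after their values were seen, with F24 values of 0.0959, 0.167 and 0.136 against 0.918 for Idh. Their differences between cryophase and thermophase were -0.01, 0.10 and -0.01 log2. In the list of other NADPH producers, 3 tested, the median F24 was 0.219 and the malic enzyme genes Men and Men-b, also named after their values were seen, had ratios of 1.13 and 1.12 with local permutation p of 0.347 and 0.362. The lists of sugar supply and storage (9 tested) and of pyruvate and glycerol phosphate enzymes (3 tested) had median F24 values of 0.133 and 0.238.

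**Figure D5:**
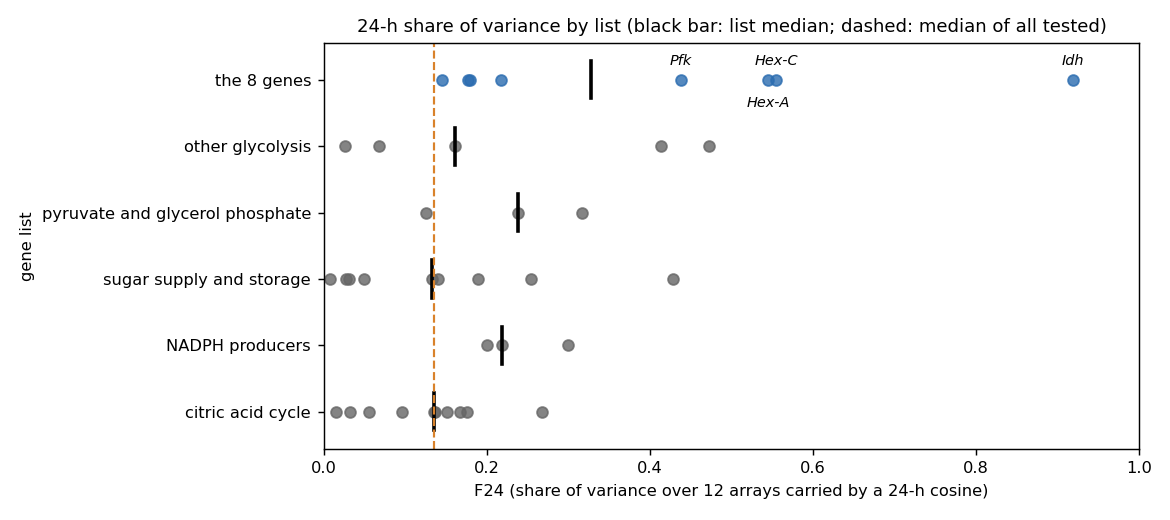
F24, the share of variance over 12 arrays carried by a 24-h cosine (x axis), for the 8 genes and for the tested genes of 5 neighbouring lists (y axis), with list medians as black bars and the median of all tested probe sets (0.135) dashed. Each gene is shown by its probe set of highest mean. Idh, at 0.918, lies apart from every other probe set shown, and none shown outside the 8 exceeds 0.473.

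Markers of head cell types were set beside the phase difference. Of 21 tested marker genes in 6 lists, 0 had a local permutation p under 0.05 and 0 were called between phases, against 6.13% and 0.251% of all tested probe sets. The summed level of 4 glial markers ranged from 11.81 to 11.97 log2 in the cryophase and from 11.18 to 11.84 log2 in the thermophase, and that of 5 fat body markers from 15.27 to 15.50 and from 15.24 to 15.46 log2. For 4 photoreceptor markers the ranges were 14.13 to 14.35 and 14.14 to 14.36 log2, for 4 neuronal markers 7.65 to 7.995 and 7.66 to 7.97 log2, for 4 muscle markers 11.44 to 11.81 and 11.62 to 11.74 log2, and for 5 digestive and reproductive markers 8.01 to 8.16 and 7.98 to 8.24 log2. In all 6 lists the phases overlapped. The mean glial sum was 11.86 log2 in the cryophase and 11.67 log2 in the thermophase, in the same direction as Idh. The lowest thermophase sum, 11.18 log2, came from day 2, while no day 1 sum was below 11.64 log2. The glial difference was not computed without that array. Gs2, which dominates this sum, lay 0.20 log2 higher in the cryophase (limma adjusted p = 0.668). The mean fat body sum was 15.39 and 15.35 log2. Mean sums of the photoreceptor, neuronal, muscle and digestive and reproductive markers were not higher in the cryophase. The part of these cells in the Idh difference was not tested. Between days limma called 2 photoreceptor markers higher on day 2, trp and inaD (0.23 log2 each), and the fat body marker Yp2 lower (-0.23 log2). Over all tested probe sets 1.61% (180) were called between days.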

How the data were processed

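The deposited table holds log2 levels from RMA, run by the authors (version not given in the sources used here). RMA subtracts background, quantile-normalizes arrays and summarizes probes, which hides a shift common to most transcripts. Symbols came from the platform annotation, updated by gene identifier against RefSeq (Release 6 plus ISO1 MT). Of the 13966 probe sets that were not controls, 12442 had 1 symbol, 327 several and 1197 none. Probe sets with over 50% of values above each array's 20th percentile were tested (11156). The day of collection served as the replicate number.

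F24 was tested over 100000 random time orders (numpy) and adjusted by Benjamini-Hochberg over all tested probe sets, and groups were compared with limma 3.58.1 (R 4.3.3), phases without a block and days with time of day as a 6-level factor. A call is an adjusted p under 0.05. The procedures were tested on simulated data. The genes, lists and tests were chosen with earlier results of these data known. The rule named all 9 genes, up to 4 genes of each list at a local p under 0.05, and the 5 genes most correlated with Idh and with Hex-A. Alternatives were other filters, centring, a linear scale, periods of 23 and 25 h, removal of day means or trend, array weights, other limma tests and arrays left out. No sequences were used here.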

Additional observations from a re-analysis of the deposited data

How the results depend on the processing

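The limits are the 12 arrays, 2 per time of day, and RMA's compression of small changes. With the day as a replicate block, 2 genes had a local permutation p under 0.05 (3 without it) while the share of all tested probe sets was 7.81% (6.13% without it), 0 passed the adjusted permutation p and limma called 1 between phases, as without it. Arrays centred on their medians and a period of 25 h each gave 4 genes at a local p under 0.05, with Pfk added. The shares of all tested probe sets were 5.70% and 6.67%. A period of 23 h gave 2 genes (5.44%) and removal of a linear trend 2 (6.66%). The time-of-day F test of limma gave 1 gene (Idh) at an unadjusted p under 0.05, against 301 of all 11156 tested probe sets. It gave 0 at an adjusted p, as for all tested probe sets. The cosinor F test of limma called 1 gene, Idh, at an adjusted p (33 of all tested probe sets, 0.296%) where the permutation test called 0. The local p of the permutation test could not fall below 1e-05. With 1 array left out, 1 to 4 genes had a local p under 0.05 (1, Idh, without AA2), against 4.78% to 7.19% of all tested probe sets. Of the 8 genes 0 passed the adjusted permutation p, while 5 of all tested probe sets passed it without AA14. In each of these 12 fits limma called 1 (Idh) between phases, and it called 0 between days. Between days, leaving out either array of a time of day gave the same estimate, because the remaining array of that time then carries no day difference. The difference between days was near 0 and changed sign for Pgk with array weights (-0.0115 log2) and, with 1 array left out, for Hex-A (-0.0286 to 0.0738 log2), Hex-C (-0.0056 to 0.0736 log2), Pfk (-0.017 to 0.027 log2) and Pgk (-0.027 to 0.0156 log2), none of them called. The cause of these changes was not tested. The fits of the cosinor F test without single arrays were chosen after seeing the data. Over all tested probe sets the calls between days rose from 180 to 450 with array weights and to 379 without AA22 or AA46, and fell to 80 without AA10 or AA34. Those between phases numbered 28, with 47 under array weights, 18 on a linear scale and 12 to 33 with 1 array left out.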

Other observations

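The malic enzyme gene Men, a producer of NADPH like Idh, was represented by a second probe set with a lower mean (6.82 log2 against 9.14 log2) that did not enter its list. That probe set had an F24 of 0.549 (local permutation p = 0.0127, adjusted permutation p = 0.598) with a ratio of 1.30 and a peak at 0.3 h, whereas the probe set of higher mean had an F24 of 0.219 and a peak at 3.6 h. The probe sets of Men therefore gave different scores, and which transcripts each of them detects was not tested.

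Some carbohydrate genes outside the 8 differed between days only before adjustment. In the list of other glycolysis genes, 4 of 5 had an unadjusted limma p under 0.05 between days, against 14.8% of all tested probe sets. Of these, Pglym78, a phosphoglycerate mutase gene (0.16 log2; limma adjusted p = 0.120), Ald1 (0.13 log2; limma adjusted p = 0.210) and Pfrx (0.11 log2; limma adjusted p = 0.286) lay higher on day 2 and fbp lay lower (-0.18 log2; limma adjusted p = 0.126). Among the sugar storage genes the trehalose synthesis gene Tps1 (0.24 log2; limma adjusted p = 0.0775), the glycogen phosphorylase gene Glyp (0.18 log2; limma adjusted p = 0.0778) and the glycogen branching enzyme gene AGBE (0.17 log2; limma adjusted p = 0.0802) lay higher on day 2 as well. All were named after their values were seen.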
